A study of Mus musculus with 32 samples.

Results

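Tibialis was compared with gastrocnemius in sick mice homozygous for the M743T knock-in allele of Gne. Gne encodes the bifunctional enzyme that carries out the opening steps of sialic acid synthesis, and mutations in its human counterpart cause GNE myopathy, a muscle disease. The comparison used 6 of the 32 RNA-seq libraries of the study, chosen by their muscle, genotype and phenotype labels: tibialis replicates 1, 2 and 4 and gastrocnemius replicates 1, 2 and 3. All mice were males aged up to 3 months, and the design text names 4 mice for each state. Healthy knock-in mice (4 tibialis and 3 gastrocnemius libraries) carry the same Gne alleles as the sick mice and were labelled healthy. Wild-type mice (4 libraries of each muscle) carry no knock-in allele, and 3 quadriceps libraries of sick mice helped to estimate the spread between replicates. Where the replicate number was a term of the fit, these quadriceps libraries also entered the log2 differences themselves. The labels do not say what marked a mouse as sick, or which libraries came from the same mouse, so a p-value here measures only the spread between these samples.

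Tibialis and gastrocnemius are both muscles of the lower hind limb, and the gastrocnemius ends in the Achilles tendon. Fast and slow muscle fibres carry different forms of myosin, troponin and calcium pumps, and the share of slow fibres differs from muscle to muscle. Homeobox, T-box and related transcription factors, which pattern the embryo, can stay active in adult muscle at levels that depend on where the muscle lies. A muscle sample also holds fibroblasts, tendon, nerve, vessels, fat and immune cells, and their RNA is measured together with that of the fibres.

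The 6 libraries held 9837481 to 24355507 counted reads, within the range of 7685164 to 42588233 over all 32. All 6 carried the genes that define skeletal muscle: Ckm (muscle creatine kinase) was at 14933, 11542 and 19727 CPM (reads of the gene scaled to the size of the library) in gastrocnemius replicates 1, 2 and 3 and at 18092, 13606 and 22068 CPM in tibialis replicates 1, 2 and 4, the order used for all values below. Desmin (Des), the intermediate filament of muscle, was at 7553, 4071 and 6211 CPM in gastrocnemius and 7018, 4819 and 5568 CPM in tibialis. The share of reads from the mitochondrial genome was 11.1%, 5.22% and 5.81% in gastrocnemius and 12.3%, 8.28% and 12.3% in tibialis, ranges that overlapped (exact permutation p = 0.2, two-sided). Gne itself, the knock-in gene (ENSMUSG00000028479, chr4:44034075-44084177, GRCm38), was at 11.2, 11.2 and 7.34 CPM in gastrocnemius and 10.3, 9.72 and 9.19 CPM in tibialis. Its ranges overlapped, and the log2 difference of -0.04 (SE 0.197) was smaller than its error (limma-voom, adjusted p = 0.984). A read count of the whole gene does not check the presence of a point mutation.

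No gene passed an adjusted p of 0.05 in the fit of the 9 sick libraries without a replicate term (limma-voom with Benjamini-Hochberg adjustment, 13501 genes tested, 0% called in either direction). At an unadjusted p under 0.05 that fit gave 951 genes, 266 higher in tibialis (1.97% of genes tested) and 685 lower (5.07%). The lowest adjusted p was 0.0556, reached by Tbx1 and by the long non-coding RNA 2310008N11Rik. Libraries with the same replicate number deviated together in all 6 sick pairs of muscles, so the fit with the replicate number as a block is given beside it. The replicate-block fit placed 101 genes past 0.05, with 23 higher in tibialis (0.17% of genes tested) and 78 lower (0.578%).

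The count of 101 depended on which libraries were in the fit. It was 0 without gastrocnemius replicate 3, where the lowest adjusted p was 0.0507, 3 without quadriceps replicate 3, 23 without gastrocnemius replicate 2 and 57 without gastrocnemius replicate 1. It was 279 without quadriceps replicate 2, 208 without tibialis replicate 2 and 160 without quadriceps replicate 4. Number 3 occurs only in gastrocnemius and quadriceps of sick mice, so leaving out either library takes the other out of the block comparison too. The same holds for number 1, in gastrocnemius and tibialis, and number 4, in quadriceps and tibialis. Genes are called higher or lower past the test below only from the replicate-block fit, and no such call holds in the fit without the block. Of the 101 genes, 65 also had CPM ranges that did not overlap between the muscles, 11 higher and 54 lower in tibialis. Over all genes tested, 5.39% had a tibialis range wholly above that of gastrocnemius and 5.89% wholly below, and these shares are the background for each count of ranges below.

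Patterning genes differed in both directions between the muscles. Sim1, a basic helix-loop-helix transcription factor of embryonic development (ENSMUSG00000019913, chr10:50894754-50989152, GRCm38), was at 1.76, 0.266 and 0.452 CPM in gastrocnemius and 14.8, 8.17 and 17.7 CPM in tibialis. Every tibialis library was above every gastrocnemius library, and the log2 difference was 3.58 (SE 0.358) with the block (limma-voom, adjusted p = 0.0044) and 4.34 without it (adjusted p = 0.415). En1, a homeobox factor that marks ventral limb ectoderm in the embryo (ENSMUSG00000058665, chr1:120602418-120607992), ran the other way. En1 was at 2.47, 4.04 and 8.24 CPM in gastrocnemius and 0.0612, 0.159 and 0.233 CPM in tibialis, with all 3 tibialis libraries far below the lowest gastrocnemius one. Its log2 difference was -4.71 (SE 0.44) with the block (adjusted p = 0.0044) and -4.66 without it (adjusted p = 0.278). Sim1 stayed past 0.05 in 7 of the 9 replicate-block fits that left out 1 library, and En1 in 5 of the 6 in which it was tested. These fits are not separate checks, since some of them take the same libraries out of the comparison.

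The 250 bases before the RefSeq start sites of these 2 genes (GRCm38.p6) are shown because the genes moved in opposite directions between the muscles. Capitals mark CANNTG, the E-box core that basic helix-loop-helix factors read, and each window holds it 2 times.
Sim1, chr10:50895401-50895650, plus strand: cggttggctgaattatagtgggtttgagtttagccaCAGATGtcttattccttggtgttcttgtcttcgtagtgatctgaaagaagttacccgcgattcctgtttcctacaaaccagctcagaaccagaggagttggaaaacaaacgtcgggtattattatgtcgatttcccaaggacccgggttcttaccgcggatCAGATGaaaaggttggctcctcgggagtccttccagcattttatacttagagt
En1, chr1:120602237-120602486, plus strand: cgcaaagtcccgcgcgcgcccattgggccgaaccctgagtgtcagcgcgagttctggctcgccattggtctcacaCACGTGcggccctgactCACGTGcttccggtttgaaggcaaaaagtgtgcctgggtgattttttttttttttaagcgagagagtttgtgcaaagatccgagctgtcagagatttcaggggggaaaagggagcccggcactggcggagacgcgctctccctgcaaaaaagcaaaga
The core, read on either strand, which is the same for CANNTG, is in 66.2% of all 32851 such windows, in 58.2% of the windows of genes tested here, and in 19 of 37 windows (51.4%) of the patterning list. The 2 windows of Tbx1 hold it 0 and 1 times. A match is a description of the letters and no measured binding site.

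Of 34 measured genes on the list of limb and muscle patterning factors, 1 was higher (Sim1) and 2 were lower (En1 and Zic1) past the test with the block, with 5 ranges wholly above and 3 wholly below. The list's median log2 difference without the block was 0.07, beside 0.03 over all genes. Tbx1, a T-box factor of the head and pharyngeal region (ENSMUSG00000009097, chr16:18580979-18590671), was at 13.5, 2.45 and 5.2 CPM in gastrocnemius and 145, 163 and 110.1 CPM in tibialis. The lowest tibialis library was thus many times the highest gastrocnemius one. Its log2 difference was 4.67 (SE 0.518) without the block (adjusted p = 0.0556) and 4.66 (SE 0.562) with it (adjusted p = 0.0728), so Tbx1 did not pass in either fit of the 9 sick libraries. In the fit of all 32 libraries, whose spread comes from 9 groups, Tbx1 passed with an adjusted p of 2.96e-06.

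Zic1, a zinc finger factor of the embryonic neural tube and somites, was at 12.9, 1.59 and 1.69 CPM in gastrocnemius and 1.53, 0.278 and 0.349 CPM in tibialis. Replicate 1 was the highest library in each muscle, and its tibialis value lay just below the other 2 gastrocnemius values. The log2 difference was -2.79 (SE 0.276) with the block (adjusted p = 0.0044) and -2.66 without it (adjusted p = 0.645). Among the list's other members, Irx3 (1.13, 1.2 and 1.13 CPM in gastrocnemius, 4.16, 2.86 and 5.29 in tibialis) and Dach2 (0.423, 0.585 and 0.339 and 1.1, 1.35 and 1.34) had tibialis ranges wholly above and did not pass. Eya2 (4.87, 6.06 and 4.07 CPM in gastrocnemius, 1.96, 0.873 and 1.69 in tibialis) lay wholly below and did not pass with the block (adjusted p = 0.103), and passed in the fit of all 32 libraries (adjusted p = 0.0281).

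Hox genes, which set position along the body axis and along the limb, held no gene past the test in either fit among 22 measured. Their median log2 difference was 0.27, with 2 ranges wholly above and 1 wholly below, and it was 0.09 without tibialis replicate 1. Hoxd9 was at 2.19, 14 and 23 CPM in gastrocnemius and 1.35, 2.74 and 1.69 in tibialis, so gastrocnemius replicate 1 fell inside the tibialis range (block adjusted p = 0.156). Hoxd8, its neighbour in the cluster, had the same order of gastrocnemius libraries, with 6.49, 24 and 38.7 CPM in gastrocnemius and 4.16, 5 and 7.56 in tibialis (block adjusted p = 0.117).

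**Figure D1:**
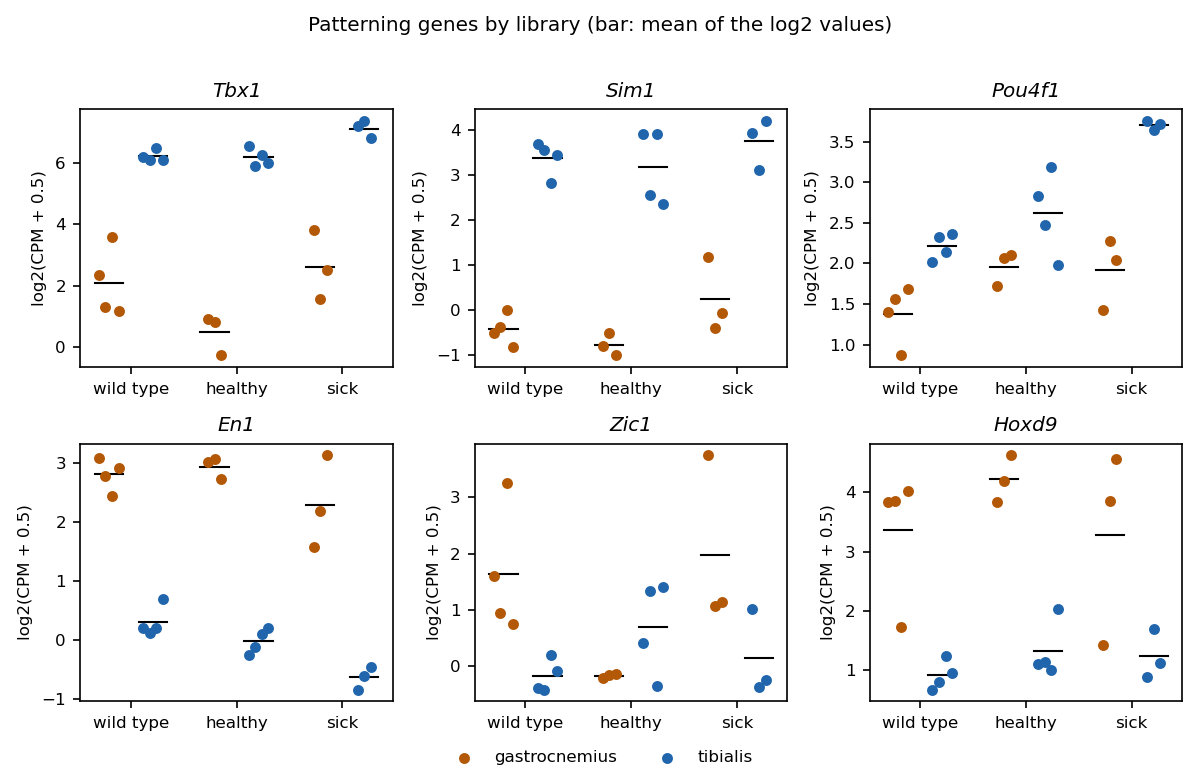
Level of 6 patterning genes in each tibialis (blue) and gastrocnemius (orange) library for the 3 states of mice; the y axes are log2(CPM + 0.5), 1 point is 1 library and the bar is the mean of the log2 values. In all 3 states the tibialis points of Tbx1 and Sim1 lie above, and those of En1 below, the gastrocnemius points, while Zic1 overlaps in healthy mice and Hoxd9 overlaps in sick mice.

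Among genes outside the lists, 2310008N11Rik (ENSMUSG00000100335, chr8:26814593-26884380) had the highest log2 difference of the 101, 4.99 (SE 0.518) with the block (adjusted p = 0.00458). It rested on 205 reads in tibialis and 3 in gastrocnemius, a depth-corrected ratio of 48.7 with an exact 95% counting interval of 16.4 to 238, which covers counting error only. Pou4f1, a POU-homeobox factor of sensory neurons, was at 2.19, 4.36 and 3.61 CPM in gastrocnemius and 13, 12 and 12.7 CPM in tibialis, with no overlap and a tight tibialis group. Its log2 difference was 1.89 (SE 0.277) with the block (adjusted p = 0.0211). Smad3, the transcription factor that relays TGF-beta and myostatin signals, was at 24.1, 24.3 and 66.2 CPM in gastrocnemius and 110.3, 73.9 and 139 CPM in tibialis. All 3 tibialis libraries exceeded the highest gastrocnemius library, replicate 3, and the log2 difference was 1.66 (SE 0.237) with the block (adjusted p = 0.0352).

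The other higher genes named by the rule of size were Gm47708, Cyp4f39, Kcnc4, Clip4, Cox7a1, Slc8a1 and Crybg3. Kcnc4, a fast-activating voltage-gated potassium channel, was at 101, 62.8 and 153 CPM in gastrocnemius and 211, 193 and 235 in tibialis (log2 1.30 (SE 0.183), block adjusted p = 0.0211). Slc8a1, the plasma membrane sodium-calcium exchanger, was at 23.5, 18.3 and 13.4 CPM in gastrocnemius and 39.5, 37.1 and 37.8 in tibialis (log2 0.90 (SE 0.128), block adjusted p = 0.0211). Cyp4f39 (0.0705, 0.425 and 1.02 CPM against 3.31, 3.73 and 10.8) and the long non-coding RNA Gm47708 (0.141, 0.425 and 0.904 against 3.31, 3.37 and 8.67) were near 1 CPM or below in gastrocnemius. Whether the counting used strand is not given in the sources used here, so reads of non-coding genes cannot be told apart from those of a gene on the other strand.

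Genes of slow fibres had lower values in tibialis, with a wide spread inside each muscle, and 1 of 20 measured members passed the test with the block. The list's median log2 difference was -3.14 without the block and -2.21 with it, 19 of 20 members were below 0, and 8 ranges lay wholly below. Myl2, the slow and cardiac regulatory myosin light chain, was at 304, 49.5 and 934 CPM in gastrocnemius and 30.2, 0.119 and 0.175 CPM in tibialis. Gastrocnemius replicate 3 was the highest library and replicate 2 the lowest of its muscle, while tibialis replicates 2 and 4 were near 0 and replicate 1 lay nearest to gastrocnemius. The fitted log2 difference was -8.36 (SE 2.31) without the block (adjusted p = 0.498) and -4.69 (SE 1.69) with it (adjusted p = 0.366).

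The same order of gastrocnemius libraries held for other slow genes. Tnnt1, slow troponin T, was at 223, 43.2 and 679 CPM in gastrocnemius and 28.8, 2.58 and 0.582 in tibialis. Atp2a2, the calcium pump of slow fibres, was at 293, 114 and 898 CPM in gastrocnemius and 49.2, 57.2 and 53.8 in tibialis, a narrow tibialis range wholly below that of gastrocnemius (adjusted p = 0.443 without and 0.353 with the block). Myh7, the slow myosin heavy chain, was at 793, 68.2 and 1871 CPM in gastrocnemius and 86.8, 0.159 and 0.175 in tibialis, and tibialis replicate 1 lay above gastrocnemius replicate 2. The member that passed was Lmod2, an actin nucleator that sets thin filament length, at 484, 512 and 725 CPM in gastrocnemius and 193, 169 and 34.6 CPM in tibialis (log2 -1.36 (SE 0.201), block adjusted p = 0.0261). Summed over the list, slow fibre genes came to 8446, 6129 and 15972 CPM in gastrocnemius and 4542, 2303 and 1756 CPM in tibialis, without overlap (exact permutation p = 0.1, the smallest that 3 against 3 can give). Without tibialis replicate 1 the list's median was -4.41, and without tibialis replicate 4 it was -2.61.

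The make-up of the myosin heavy chains can be read per length, as CPM per kilobase of exon. Myh4, the myosin of the fastest fibres (type 2B), was the most abundant in all 6 libraries, at 6505, 4738 and 10965 in gastrocnemius and 11526, 6283 and 10529 in tibialis on that scale, with overlap. Myh1 (type 2X) was at 2431, 574 and 1070.3 and 1696, 1380.1 and 1207, also with overlap. Myh2 (type 2A) was at 543, 235 and 364 in gastrocnemius and 170.4, 59.7 and 55.7 in tibialis, so all tibialis libraries were lower, with a log2 difference of -2.11 (SE 0.744) that did not pass (adjusted p = 0.645). Myh7 was the scarcest of the 4 in each library, at 92, 7.91 and 217 in gastrocnemius and 10.1, 0.0184 and 0.0203 in tibialis. Fast fibre genes as a list showed no member past the test among 21, 1 range wholly above, 1 wholly below and a median of 0.27. That median ran from -0.03 without gastrocnemius replicate 2 to 0.43 without tibialis replicate 2.

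**Figure D2:**
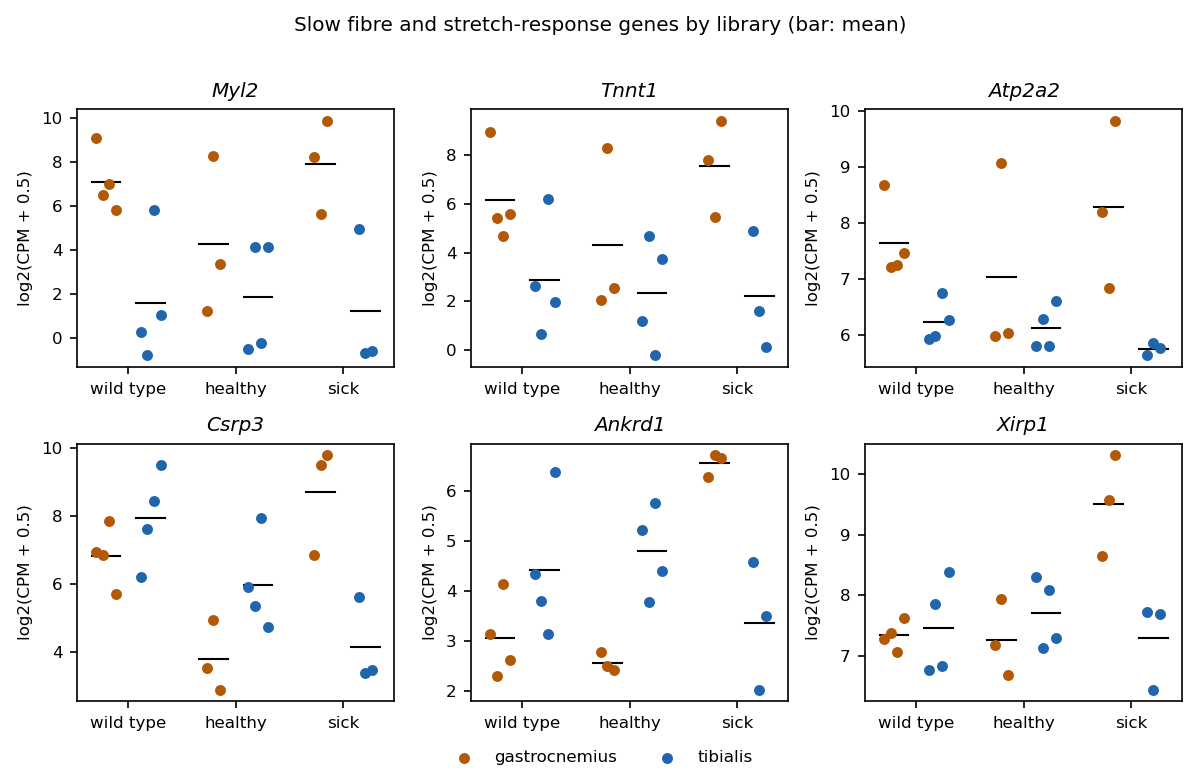
Level of 3 slow fibre genes (Myl2, Tnnt1, Atp2a2) and 3 stretch-response genes (Csrp3, Ankrd1, Xirp1) per library, with tibialis in blue and gastrocnemius in orange, as log2(CPM + 0.5) with the mean of the log2 values as a bar. In sick mice the tibialis points of all 6 genes lie below the gastrocnemius points, whereas the means of Csrp3 and Ankrd1 are higher in tibialis in wild-type and healthy mice.

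Stretch-response genes, a family of ankyrin-repeat and LIM proteins at the Z-disc and in the nucleus that muscle makes under mechanical load, had higher values in sick gastrocnemius for 9 of 13 members, and none passed the test of the 9 sick libraries. Of 13 measured, 6 ranges lay wholly below in tibialis and none wholly above, the median log2 difference was -1.65, and no member passed the test in either fit. Some members, Csrp3 among them, are also on the slow fibre list, so the medians of these lists partly rest on the same genes. Ankrd1 (ENSMUSG00000024803, chr19:36111961-36120099), an ankyrin-repeat protein that binds titin, was at 76.7, 104 and 100.2 CPM in gastrocnemius and 23.4, 3.61 and 10.8 CPM in tibialis. The gastrocnemius libraries were close together and the lowest was more than 3 times the highest tibialis library. The log2 difference was -3.33 (SE 0.604) without the block (adjusted p = 0.415) and -3.01 (SE 0.878) with it (adjusted p = 0.292). In the fit of all 32 libraries Ankrd1 passed, at -3.34 (adjusted p = 0.0328). The list's median was -1.08 without tibialis replicate 2.

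Csrp3, the muscle LIM protein, was at 116, 726 and 883 CPM in gastrocnemius and 48.6, 9.96 and 10.7 CPM in tibialis. Gastrocnemius replicate 1 stood well below replicates 2 and 3, and it was still above all tibialis libraries (adjusted p = 0.462 without and 0.401 with the block). Xirp1, an actin-binding protein of muscle attachment sites, was at 401, 759 and 1265 CPM in gastrocnemius and 211, 86.6 and 206 in tibialis, again without overlap (adjusted p = 0.462 and 0.365). In contrast to these, Ankrd23, of the same ankyrin family as Ankrd1, was at 68.3, 84.8 and 102 CPM in gastrocnemius and 137, 61.1 and 158 in tibialis, with overlap.

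The promoter windows of Ankrd1 and of 2 slow genes, Myl3 (slow and cardiac essential myosin light chain) and Tnnc1 (slow and cardiac troponin C), are shown because their windows hold the element searched, and they were chosen after that search. Capitals mark CATTCC or its reverse complement GGAATG, the MCAT element that TEAD factors of muscle genes read.
Ankrd1, chr19:36119845-36120094, minus strand: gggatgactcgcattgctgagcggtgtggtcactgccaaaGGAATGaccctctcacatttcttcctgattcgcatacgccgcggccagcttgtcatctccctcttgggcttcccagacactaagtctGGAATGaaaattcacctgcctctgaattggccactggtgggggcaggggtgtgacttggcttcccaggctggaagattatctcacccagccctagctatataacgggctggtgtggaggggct
Myl3, chr9:110763428-110763677, plus strand: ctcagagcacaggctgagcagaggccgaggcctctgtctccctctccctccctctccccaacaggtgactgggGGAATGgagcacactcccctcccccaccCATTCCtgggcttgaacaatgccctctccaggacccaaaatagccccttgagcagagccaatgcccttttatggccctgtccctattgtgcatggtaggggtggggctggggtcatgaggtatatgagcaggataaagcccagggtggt
Tnnc1, chr14:31208062-31208311, plus strand: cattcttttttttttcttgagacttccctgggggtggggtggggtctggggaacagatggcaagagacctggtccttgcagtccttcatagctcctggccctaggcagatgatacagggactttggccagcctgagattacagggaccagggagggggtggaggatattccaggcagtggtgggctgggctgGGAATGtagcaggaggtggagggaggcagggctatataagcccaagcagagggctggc
The element occurs 2 times in the Ankrd1 window, 2 times in that of Myl3 and 1 time in that of Tnnc1, and of the 2 windows of Myh7 1 holds it. Most windows of both lists do not hold it. On either strand it is in 4 of 24 windows of slow fibre genes (16.7%) and 2 of 15 windows of stretch-response genes (13.3%). The share was 12.6% over all 32851 windows, 11% over the windows of genes tested and 11 of 97 (11.3%) over those of the 101 genes past the test with the block. CANNTG was in 24 of 24 slow fibre windows, beside 66.2% of all windows. Myl3 was at 137, 22.4 and 502 CPM in gastrocnemius and 16.2, 0.0397 and 1.45 in tibialis, and Tnnc1 was at 259, 23.2 and 612 CPM and 31.3, 0.119 and 0.0582 CPM, both in the gastrocnemius order of Myl2.

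Heat shock and chaperone genes had 8 ranges wholly below and 2 wholly above among 35 measured, with a median log2 difference of -0.22 and 1 member lower past the test with the block. That member was Hspb1, a small heat shock protein that guards actin filaments, at 68.1, 275 and 324 CPM in gastrocnemius and 40.5, 127 and 35.8 in tibialis. Its ranges overlapped, and its log2 difference was -1.07 (SE 0.187) with the block (adjusted p = 0.0436). Cryab, the small heat shock protein that binds desmin, was at 454, 440.3 and 822 CPM in gastrocnemius and 343, 74.7 and 149 in tibialis, wholly below without passing (block adjusted p = 0.468). The inducible Hsp70 gene Hspa1b was at 4.3, 3.14 and 10.3 CPM in gastrocnemius and 0.673, 0.674 and 0.582 in tibialis, also without overlap. Hspa1a and Hspa1b are near-identical copies, so the split of reads between them is uncertain.

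On the list of sarcomere and Z-disc genes, 41 measured, Lmod2 was lower and Myoz3, a calsarcin of fast fibres, was higher past the test with the block. Myoz3 was at 7.4, 2.76 and 5.99 CPM in gastrocnemius and 26.4, 4.96 and 30.7 in tibialis, with tibialis replicate 2 inside the gastrocnemius range (log2 1.40 (SE 0.204), block adjusted p = 0.0211). The dystrophin complex list held 1 lower member of 30, Lama2, the laminin chain that dystroglycan binds, at 74.4, 86.3 and 125 CPM in gastrocnemius and 45.3, 57.6 and 40.5 in tibialis (log2 -0.74 (SE 0.131), block adjusted p = 0.038). Of 24 channel genes, Kcnc4 was higher and Kcna1, a potassium channel of nerve axons, was lower, at 3.17, 10.7 and 2.94 CPM against 1.59, 2.02 and 2.04 CPM. No member passed in either fit among 22 troponin, tropomyosin and myosin light chain genes, 33 of calcium handling, 23 of the neuromuscular junction or 14 of embryonic and regenerating fibres.

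Connective tissue genes had lower values in tibialis, and few of them passed the test. Of 44 extracellular matrix genes, 43 were below 0 with a median log2 difference of -0.87, 15 ranges lay wholly below, none lay wholly above, and 5 members were lower past the test with the block. Those 5 were Lox, Ctgf, Fbn1, Col1a1 and Col6a1. Ctgf, a matrix-bound growth factor of fibrosis, was at 50.1, 157 and 142 CPM in gastrocnemius and 15.1, 38.7 and 40.8 CPM in tibialis, without overlap (log2 -1.67 (SE 0.198), block adjusted p = 0.0173). Lox, the enzyme that crosslinks collagen, was at 61, 293 and 212 CPM in gastrocnemius and 29, 118 and 25.8 CPM in tibialis. For Lox, tibialis replicate 2 lay above gastrocnemius replicate 1, although replicates 1 and 2 were each lower in tibialis than in the gastrocnemius of the same number (log2 -1.31 (SE 0.146), block adjusted p = 0.00619). Col1a1, the main fibrillar collagen, was at 113, 275 and 266 CPM in gastrocnemius and 49.6, 132 and 101 CPM in tibialis, with the same overlap.

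All 17 measured tendon markers were below 0, with a median log2 difference of -2.09, 8 ranges wholly below and 2 members lower past the test with the block. Angptl7, a secreted angiopoietin-like protein (ENSMUSG00000028989, chr4:148495183-148500460), was at 72.2, 145 and 204 CPM in gastrocnemius and 8.08, 28 and 10.6 CPM in tibialis. Each tibialis library was below the lowest gastrocnemius library, and the log2 difference was -2.61 (SE 0.227) with the block (adjusted p = 0.00492). Tnc, the matrix protein tenascin C of tendon and of injured muscle, was at 6.49, 8.66 and 6.1 CPM in gastrocnemius and 0.796, 2.46 and 1.8 in tibialis (log2 -2.0 with an SE of 0.327, block adjusted p = 0.0273). Fmod, the collagen-binding fibromodulin, was at 173, 55.1 and 143 CPM and 19.2, 17.7 and 30.0 CPM, and Comp, a cartilage and tendon matrix protein, at 19.5, 4.04 and 7.91 and 0.551, 1.43 and 1.8, both wholly below without passing. Scx, the transcription factor that defines tendon cells, was at 8.96, 2.71 and 10.6 CPM in gastrocnemius and 8.63, 1.51 and 5.82 CPM in tibialis, and its ranges overlapped.

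Summed tendon markers were 587, 591 and 888 CPM in gastrocnemius and 101, 244 and 166 CPM in tibialis, and no tendon marker was at 0 in all libraries of either muscle. The part of tendon cells in the matrix differences was not tested. In whole muscle, fewer cells of a type and less RNA per cell cannot be told apart, and this holds for each cell type below. Fibro-adipogenic progenitors, the resident fibroblasts that make matrix, had 6 marker ranges wholly below and 1 wholly above among 16, with a median of -0.82 and 1 member lower with the block, Mfap5. Their summed CPM was 1471, 2249 and 2825 in gastrocnemius and 789, 1477 and 781 in tibialis, so tibialis replicate 2 reached gastrocnemius replicate 1. Pdgfra, the receptor that defines these cells, was at 34.9, 50.8 and 67.2 CPM in gastrocnemius and 16.5, 30.0 and 13.3 in tibialis, wholly below without passing (block adjusted p = 0.0856).

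Schwann cell and nerve markers were high in 1 library above all. Their summed CPM was 479, 2276 and 144 in gastrocnemius and 130.0, 115 and 91 in tibialis, so gastrocnemius replicate 2 stood far above the others. Of 12 measured markers, 4 ranges lay wholly below, the median was -2.01, and 1 member was lower past the test with the block: Egr2, a myelination factor, at 3.17, 9.36 and 1.13 CPM and 1.47, 2.62 and 0.931 CPM. Without gastrocnemius replicate 2 the median was -1.2. The markers Gfap, Nefl, Chat and Tubb3 had no reads in tibialis.

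Several of the genes with the lowest log2 differences past the test with the block were also highest in gastrocnemius replicate 2. Nfasc, a cell adhesion protein of the node of Ranvier, was at 5.01, 13.8 and 1.58 CPM in gastrocnemius and 1.53, 1.35 and 0.814 CPM in tibialis, and its ranges all but touched. Bcas1, a protein of myelinating cells, was at 2.96, 8.24 and 0.904 CPM and 0.735, 0.635 and 0.698 CPM, Slit2, an axon guidance factor, at 1.83, 4.25 and 0.791 and 0.245, 0.198 and 0.407, and Spp1, the matrix cytokine osteopontin, at 3.46, 27.6 and 5.2 and 0.429, 0.317 and 0.698. The log2 differences with the block were -2.66, -2.93, -3.61 and -5.13 in that order, the last being the lowest of all 101. Gria3, Cfap100 and Vit were likewise highest in that library, and the part of nerve in these values was not tested. Rbp4, the retinol carrier, was at 2.19, 2.34 and 3.95 CPM in gastrocnemius and 0.184, 0.317 and 0.349 in tibialis, and Aldh1a2, which makes retinoic acid, was at 1.62, 1.59 and 1.92 CPM and 0.367, 0.238 and 0.989 CPM. For these 2 genes the highest gastrocnemius library was replicate 3.

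Macrophage markers held no member past the test and no range without overlap among 19, with a median of -1.03. Their summed CPM was 153, 453 and 298 in gastrocnemius and 68.4, 341 and 97.3 in tibialis, with replicate 2 highest in each muscle. The median was -1.90 without tibialis replicate 2 and -0.57 without gastrocnemius replicate 2. Adipocyte markers had 8 of 16 ranges wholly below and none past the test, with a median of -1.49 and 3 members above 0. Their summed CPM overlapped, at 5878, 3467 and 5893 in gastrocnemius and 4269, 4126 and 5302 in tibialis. Adipoq, the fat cell hormone adiponectin, was at 24.5, 25.4 and 8.47 CPM in gastrocnemius and 0.612, 8.65 and 1.28 in tibialis. Endothelial markers ran the other way, with 18 of 20 members above 0, a median of 0.36 and 3 ranges wholly above, Cdh5, Esam and Aqp1, none past the test in either fit. Cdh5, the cadherin of vessel walls, was at 94.9, 77.8 and 66.5 CPM in gastrocnemius and 123, 113 and 133 in tibialis. The cartilage and bone list held 1 lower member of 6, Spp1. No lymphocyte marker had enough reads to be tested, and satellite cell, smooth muscle, erythrocyte, neutrophil, skin and liver markers had no member past the test in either fit.

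**Figure D3:**
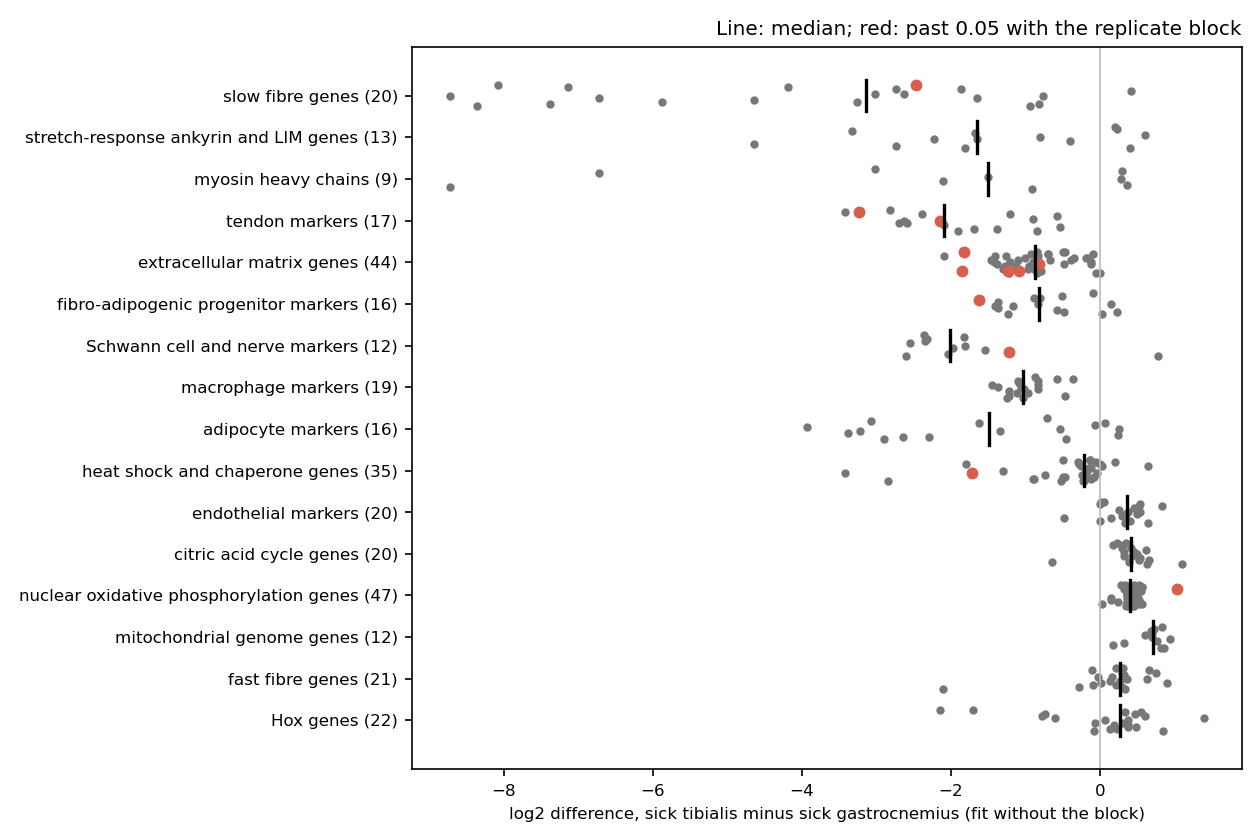
Log2 difference of each measured member of 16 gene lists, sick tibialis minus sick gastrocnemius from the fit without the block, with the list's name and number of members on the y axis; the black bar is the list's median, and red points are genes past 0.05 with the replicate block. Slow fibre, tendon and Schwann cell medians lie furthest below 0, at -3.14, -2.09 and -2.01, and the mitochondrial lists lie above 0.

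**Figure D4:**
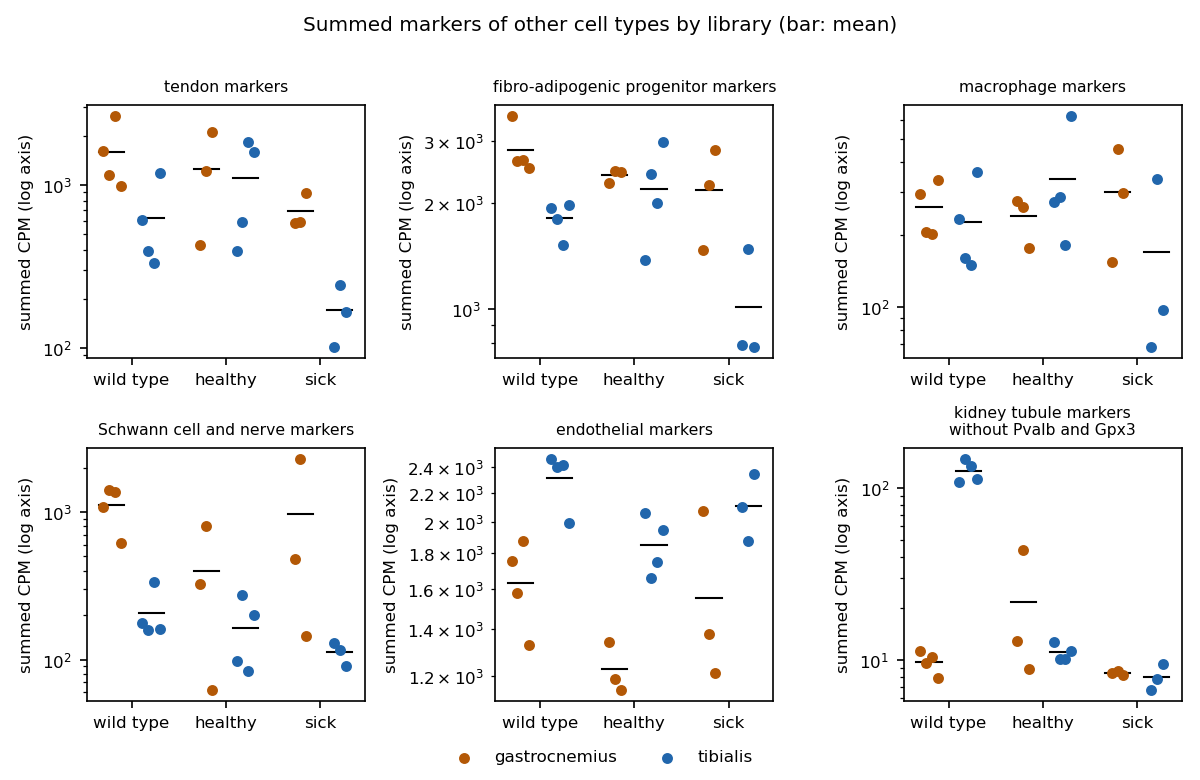
Summed CPM of the markers of 6 cell types in each tibialis (blue) and gastrocnemius (orange) library by state, on log axes, with the mean as a bar. The sick tibialis libraries lie below the sick gastrocnemius ones for tendon and Schwann cell markers, and kidney tubule markers are high in the 4 wild-type tibialis libraries and raised in 1 healthy gastrocnemius library.

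Genes of energy metabolism leaned towards tibialis by small amounts. All 47 measured nuclear genes of oxidative phosphorylation were above 0, with a median log2 difference of 0.41, but only 3 ranges lay wholly above and 1 member was higher past the test with the block. That member, Cox7a1, the muscle form of a cytochrome c oxidase subunit, was at 133, 65.8 and 126 CPM in gastrocnemius and 219.8, 172 and 256 CPM in tibialis, without overlap (log2 1.05 (SE 0.185), block adjusted p = 0.0415). Citric acid cycle genes had 5 of 20 ranges wholly above and a median of 0.42, and the 12 measured genes of the mitochondrial genome had a median of 0.71, with no member past the test in either list. The oxidative phosphorylation median ran from 0.14 without gastrocnemius replicate 2 to 0.58 without gastrocnemius replicate 1. Without gastrocnemius replicate 2 the medians were also lower for the mitochondrial genome (0.39), the citric acid cycle (0.21) and glycolysis (0.13), and their highest values with 1 library left out were 1.08 without gastrocnemius replicate 1 and, without gastrocnemius replicate 3, 0.56 for each of the other two. Glycolysis and glycogen genes had no member past the test among 37 and a median of 0.36. Vldlr, a lipoprotein receptor, was the 1 higher member among 43 genes of fatty acid oxidation and PPAR targets, and it is also on the list of the integrated stress response. It was at 193, 276 and 403 CPM in gastrocnemius and 298, 641 and 571 in tibialis (log2 0.89 (SE 0.148), block adjusted p = 0.0301).

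None of 37 muscle atrophy genes passed in either fit, with a median log2 difference of -0.02 that was -0.45 without tibialis replicate 2 and 0.12 without tibialis replicate 1. Trim63, the muscle ubiquitin ligase MuRF1, was at 237, 3180.2 and 2515 CPM in gastrocnemius and 335, 5377 and 565 CPM in tibialis. Fbxo32, the ligase atrogin-1, was at 968, 3589 and 2820.4 CPM in gastrocnemius and 1018, 5074 and 916 CPM in tibialis. For both ligases, replicate 2 was the highest library in each muscle and replicate 1 was low in each. No member passed in either fit on the lists of glucocorticoid-responsive, p53, clock, cell cycle, lysosome and autophagy, proteasome, ribosomal protein, interferon response, sterol synthesis or acute phase genes. Of 24 growth hormone and insulin-like growth factor genes, Igfbp6, a binding protein that holds IGF2, was lower past the test with the block, at 38.9, 76.9 and 57.3 CPM in gastrocnemius and 13.9, 35.5 and 9.54 CPM in tibialis (log2 -1.39 (SE 0.194), adjusted p = 0.0211). The immediate early list held 2 lower members of 26, Egr2 and Ctgf, both given above.

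Of 23 measured genes for sialic acid synthesis, transport and transfer, the list around Gne itself, none passed in either fit, 1 range lay wholly above and 1 wholly below, and the median log2 difference was 0.02. Nans, which makes sialic acid phosphate, was at 13.6, 7.87 and 11.1 CPM in gastrocnemius and 13.8, 10.8 and 11.3 in tibialis. Cmas, which activates sialic acid for transfer, was at 18.3, 14.9 and 15.4 CPM and 14.7, 17.9 and 18.5 CPM, and Slc35a1, its Golgi transporter, at 11.1, 11.6 and 11.2 and 11, 11.5 and 8.9. With SEs of 0.176 to 0.253 on the log2 scale for these 3 genes, small differences were not detectable.

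The same muscle difference was then fitted in wild-type and healthy knock-in mice, from all 32 libraries and 15229 genes. It placed 221 genes past 0.05 in wild type (141 higher and 80 lower in tibialis, 1.45% of genes tested), 20 in healthy knock-in mice (8 and 12, 0.131%) and 14 in sick mice (6 and 8, 0.0919%). Those 14 were Tbx1, Pou4f1, Sim1, Gm47708, 2310015K22Rik and Smad3, higher, and En1, Eya2, Shisa3, Ogn, Ankrd1, Dcn, Inmt and Nrn1, lower. The states differ in numbers of libraries and in spread, so these counts do not compare the states. Of the 101 genes past the test with the block in sick mice, 97 had the same sign in wild type (96.0%, beside 67.8% of all genes) and 16 of them also passed there. In healthy knock-in mice 70 had the same sign (69.3%, beside 52.5% of all genes) and 3 passed. The 101 genes were selected by their test and all genes were not, so these shares are not matched for the size of the difference. Sim1 had log2 differences of 5.22 in wild type and 6.39 in healthy mice, En1 had -3.03 and -3.80, and Tbx1 had 4.13 and 6.36. Zic1 had -2.85 in wild type and 1.46 in healthy mice.

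Slow fibre genes had medians of -0.89 in wild type and -0.57 in healthy mice, and tendon markers had -1.42 and -0.38, all below 0 as in sick mice. Schwann cell and nerve markers had -1.90 in wild type and -0.24 in healthy mice. Their summed CPM was 1075, 1404, 1361 and 612 in wild-type gastrocnemius and 176, 159, 334 and 160 in wild-type tibialis, without overlap. In healthy mice these sums overlapped. The stretch-response list differed in sign, with 0.44 in wild type and 0.38 in healthy mice. Ankrd1 was at 8.37, 4.47, 17.1 and 5.67 CPM in wild-type gastrocnemius and 19.9, 13.4, 8.4 and 82.2 CPM in wild-type tibialis, with overlap and a higher mean in tibialis, whereas in sick mice all tibialis libraries were below. Its muscle difference was lower in sick than in wild-type mice by a log2 value of -4.76 (SE 0.88, limma-voom interaction, adjusted p = 0.0083), and lower than in healthy mice by -5.63 (adjusted p = 0.0691), which did not pass. Without sick tibialis replicate 2 the value against wild type was -3.96 (adjusted p = 0.0659), which ended the call, while the other 13 fits that left out 1 library kept it. With the replicate block, whose rule for pairing was not met in wild type, the Ankrd1 value was -4.38 and did not pass (adjusted p = 0.273). Csrp3 gave -5.78 against wild type, which did not pass either (adjusted p = 0.125). The Gne muscle difference in sick mice differed by -0.09 on the log2 scale from that in wild type and by 0.02 from that in healthy mice, and neither passed. The extracellular matrix median was -0.42 in wild type and 0.19 in healthy mice.

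In all, 31 genes had a muscle difference that differed between sick and wild-type mice past 0.05 (0.204% of genes tested), 1 higher and 30 lower in sick mice. Of the 30 lower ones 11 are on the kidney tubule list, and for 28 of the 31 all 4 wild-type tibialis libraries lay above the other 28 libraries, the exceptions being Ankrd1, Enah and 2310015K22Rik. Kap, a kidney androgen-regulated protein, was at 32.2, 43.1, 36.6 and 36.2 CPM in wild-type tibialis and at 0, 0 and 0.116 CPM in sick tibialis. Umod, the main protein of urine, was at 3.3, 4.18, 3.04 and 2.83 CPM in wild-type tibialis and had no reads in sick tibialis or sick gastrocnemius. Without Pvalb and Gpx3, which muscle makes, summed kidney markers were 8.46, 8.61 and 8.24 CPM in sick gastrocnemius and 6.73, 7.74 and 9.54 CPM in sick tibialis, beside 108 to 147 CPM in wild-type tibialis and 43.7 CPM in healthy gastrocnemius replicate 2. With 1 library left out, Umod, Slc12a1 and Slc34a1 stayed past 0.05 in 14 of 14 fits, Acsm2 in 6 and Kap in 2. The part of kidney RNA in these 31 calls was not tested. In the sick comparison the summed kidney markers of the 2 muscles overlapped.

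Enah, an actin-elongating protein, was at 67.9, 74.7 and 192 CPM in sick gastrocnemius and 51.3, 30.7 and 52.8 CPM in sick tibialis. In wild type the mean was higher in tibialis, with overlap, at 43.2, 52.9, 64.9 and 37 CPM in gastrocnemius and 65.3, 74, 63.4 and 85.5 CPM in tibialis, an interaction of -1.76 (adjusted p = 0.0446) that stayed past 0.05 in 3 of 14 fits that left out 1 library (highest adjusted p 0.232, without sick tibialis replicate 2). The 1 higher gene, 2310015K22Rik, was at 0.282, 0.744 and 1.47 CPM in sick gastrocnemius and 3.31, 6.39 and 2.97 CPM in sick tibialis. Its wild-type libraries ran from 0.796 to 2.24 CPM in both muscles, and the interaction was 3.34 (adjusted p = 0.0083). It was 2.78 (adjusted p = 0.0597) without sick gastrocnemius replicate 1 and 2.49 (adjusted p = 0.173) with library quality weights, neither past 0.05. Against healthy knock-in mice no gene passed 0.05 (0% of 15229, limma-voom, lowest adjusted p 0.0691, 1037 genes at an unadjusted p under 0.05), and limma-trend gave 1 gene. Across genes, the muscle difference in sick mice had a Pearson r of 0.431 with that in wild type and 0.199 with that in healthy mice, where genes are not independent and the 3 states share one fit.

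**Figure D5:**
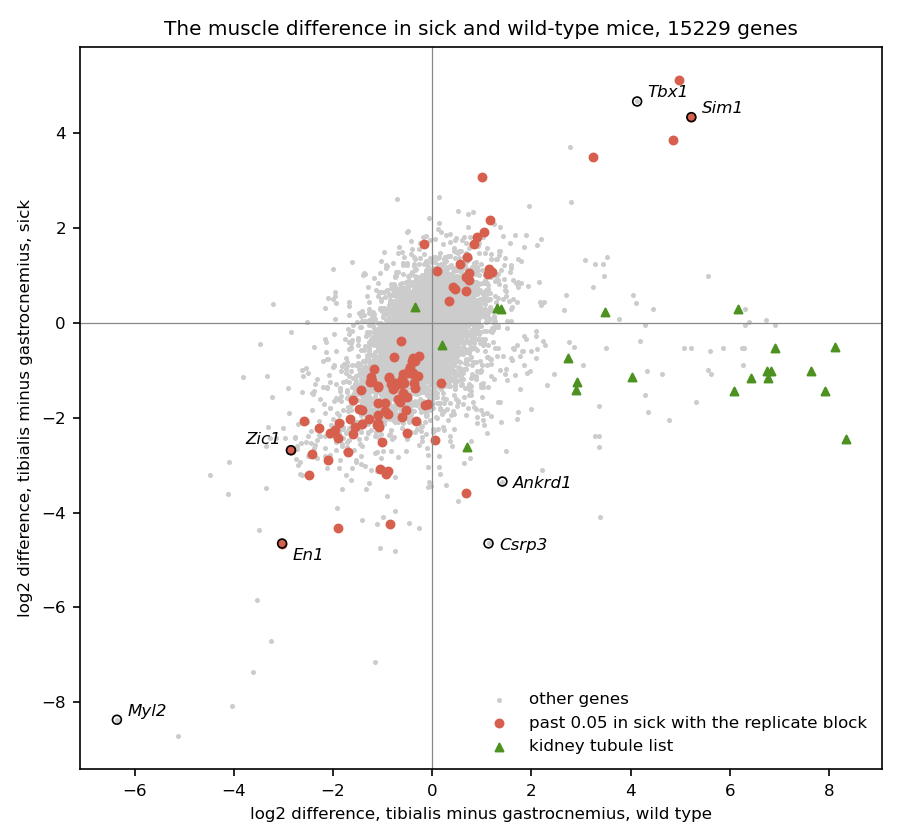
Log2 difference of tibialis minus gastrocnemius for 15229 genes in sick mice (y axis) against wild-type mice (x axis), 1 point per gene, with genes past 0.05 in sick mice with the replicate block in red and genes of the kidney tubule list as green triangles. Most red points lie in the quadrants of shared sign, kidney genes lie far to the right at small or negative sick values, and Ankrd1 and Csrp3 lie in the lower right quadrant.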

How the data were processed

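RNA of 3 mouse muscles was sequenced in 32 libraries, and the deposited table gives raw read counts per gene, with no value for 6252 of 54838 genes. Per the submitters' processing notes the authors used cutadapt 1.18, TopHat2 2.1.1, HTSeq 0.6.0 and DESeq2 1.22.1 on GRCm38; the settings, the strand option and the annotation release were not stated in any label or header used. The authors' normalized values were not used. The plan called for limma-voom if the columns did not pass a check of units, and the missing values failed that check. The count models planned as the main test and as an alternative were therefore not run. In their place stood limma-voom (limma 3.58.1 in R 4.3.3, robust). The 48586 genes with values held whole numbers in all 32 libraries, so the values themselves did not prevent a count model.

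Scaling factors were computed by TMM (trims of 0.3 and 0.05) from all 32 libraries, and CPM uses them. Genes needed 10 counts in at least 3 libraries, after scaling to library size, and 15 in all. Applied to the 6 sick tibialis and gastrocnemius libraries, this left 13501 genes for the sick fits. A gene could thus enter through the libraries of a single muscle. Applied to all 32 libraries, the filter left 15229 genes. P-values were adjusted by Benjamini-Hochberg over all genes tested, with 0.05 as the threshold, and log2 values carry voom's prior count of 0.5. The method was run on simulated data with the same spread set for all genes, so that run does not measure the error of the calls here. Replicates of a muscle differed by more than counting noise (chi-square per gene of 38.7 to 197 between pairs).

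The labels give shared replicate numbers without saying what they mark. In sick mice all 6 same-number pairs of libraries from different muscles correlated in their deviations from the group means (0.376 to 0.667), beside -0.687 to 0.477 for the 21 other pairs, so the numbers were taken to pair the libraries before the calls of the fits were compared. Only numbers 1 and 2 occur in both sick tibialis and sick gastrocnemius, and the other numbers link through quadriceps. In wild type 10 of 12 pairs passed 0.1, so the rule was not met there.

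The members, the 50 gene lists (1193 of 1197 symbols matched) and the tests were chosen with earlier results of these data known. The rule for names was up to 12 genes in each direction past 0.05 with a mean of at least 1 CPM and no overlap, up to 3 members of each list past 0.05, any Hox, patterning or myosin heavy chain gene, the up to 8 lowest p-values of each interaction with a mean of at least 1 CPM, and Gne. Without the block it names no gene by size, so after the values were seen it was applied to the replicate-block fit, which gave 23 genes, and list members that passed in neither fit are named with their values. Against wild type the rule gave 6 interaction genes. Umod and Slc12a1, which passed with a mean below 1 CPM, were added outside the rule. Gene positions are from GENCODE for GRCm38 and promoter sequences from RefSeq, GRCm38.p6. Levels per kilobase divide CPM by merged exon length. Figures were drawn with matplotlib 3.10.9 in Python 3.11.15. The alternatives were median-of-ratios scaling, no filter, the 6 libraries alone, all 32 libraries, the block, library quality weights, limma-trend and leaving out each library. The replicate block combined with each of these except the 6 libraries alone was added after seeing the data. The values of 2 genes are not reported here.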

Additional observations from a re-analysis of the deposited data

Results flagged for a closer look

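In 27 values of 3 groups of 4 libraries (81 sets), a single library stood apart from the other 3 of its group in 13 by Dixon's criterion at the 95% level. For independent, normally distributed values about 1 such set in 20 would stand apart. Most values here are untransformed CPM or sums of CPM, and some move together, such as Myl2 and Tnnt1. The 13 sets are therefore not compared with that rate. None of these libraries is among the 6 of the sick comparison, whose groups of 3 were not looked at in this way. Slow fibre genes stood apart in both wild-type muscles. Myl2 was at 552 CPM in wild-type gastrocnemius replicate 1, beside 56.1 to 128 CPM in the other 3, and Tnnt1 at 499 CPM in the same library, beside 25.5 to 48.1 CPM. In wild-type tibialis replicate 3 Myl2 was at 55.4 CPM, beside 0.0836 to 1.55 CPM, and Tnnt1 at 72.7 CPM, beside 1.09 to 5.73 CPM. Ankrd1 was at 82.2 CPM in wild-type tibialis replicate 4, beside 8.4 to 19.9 CPM, and En1 at 1.12 CPM in the same library, beside 0.585 to 0.661 CPM. Csrp3 was at 245 CPM in healthy tibialis replicate 3, beside 26.2 to 60.1 CPM.

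Summed markers of other cell types stood apart in 6 libraries. Fibro-adipogenic progenitor markers summed to 3517 CPM in wild-type gastrocnemius replicate 1 (2514 to 2652 in the others), and cartilage and bone markers to 173 CPM in wild-type gastrocnemius replicate 3 (41.1 to 49.4). Adipocyte markers were low in healthy tibialis replicate 2, at 3646 CPM (4497 to 4602), and endothelial markers low in wild-type tibialis replicate 4, at 1990.4 CPM (2394 to 2458). Schwann cell markers reached 334 CPM in wild-type tibialis replicate 3 (159 to 176), and skin markers 28.4 CPM in healthy tibialis replicate 4 (15.2 to 16.8).

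The muscle difference itself differed between sick and wild-type mice in 31 genes by the interaction test of limma-voom. In the 8 genes with values here the interactions were -9.34 for Slc34a1, -8.62 for Acsm2, -10.77 for Kap, -7.43 for Umod and -7.50 for Slc12a1 on the log2 scale, all kidney genes that were at 0 or near 0 CPM in sick tibialis. For genes without reads in a group such a fitted value depends on the prior count and bounds nothing. The other 3 were Ankrd1 at -4.76, Enah at -1.76 and 2310015K22Rik at 3.34. Without wild-type tibialis replicate 4, where Ankrd1 stood apart, the Ankrd1 value was -4.06 (adjusted p = 0.0142, limma-voom), and without sick tibialis replicate 2 it was -3.96 and no longer passed (adjusted p = 0.0659).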

How the results depend on the processing

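The count of 0 genes in sick tibialis against gastrocnemius stayed 0 with median-of-ratios scaling and with the 6 libraries alone. It was 4 with no filter on low counts, 16 in the fit of all 32 libraries (adjusted over the same 13501 genes), 2 with library quality weights, 3 with limma-trend and 101 with the replicate block, and leaving out 1 library gave 0 to 1 (1 without gastrocnemius replicate 1). The count of 101 with the block became 127 with median-of-ratios scaling, 727 with no filter, 186 with all 32 libraries, 371 with library quality weights and 73 with limma-trend. Leaving out 1 library under the block gave 102 and 151 without tibialis replicates 1 and 4, 208 without tibialis replicate 2, 57, 23 and 0 without gastrocnemius replicates 1, 2 and 3, and 279, 3 and 160 without quadriceps replicates 2, 3 and 4. Of the 101 genes, 46 were also past 0.05 in the block fit of all 32 libraries, 67 with limma-trend, 33 without gastrocnemius replicate 1 and 12 without gastrocnemius replicate 2. These block settings were chosen after seeing the data, and the cause of the changes was not tested.

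The Gne difference, which passed no test, turned to 0.049 with library quality weights (adjusted p = 0.924) and ran from -0.207 to 0.0583 when 1 library was left out, being 0.0397 without gastrocnemius replicate 1 and 0.0583 without gastrocnemius replicate 2. With the block it was 0.0151 without gastrocnemius replicate 2. Its difference from wild type (-0.0918) was 0.0995 with library quality weights and -0.25 to 0.011 with 1 library left out, and that from healthy mice (0.0154) ran from -0.143 to 0.118, none past the test. The 31 genes that differed between sick and wild type in the muscle difference were 31 with median-of-ratios scaling, 78 with no filter, 20 with the replicate block (17 of them shared), 23 with library quality weights, 43 with limma-trend and 20 to 28 when 1 library was left out. Against healthy knock-in mice the count of 0 was 1 with limma-trend, 0 with the replicate block and 0 to 1 when 1 library was left out (1 without sick tibialis replicate 1 or healthy tibialis replicate 2). Of the values for single genes and lists, 3177 stayed on their side of the threshold with the same direction, 201 lost and 136 gained a call, and 24 counts of list members changed. Of the 8 named genes of the comparison with wild type, the replicate block took Ankrd1 to -4.38 (adjusted p = 0.273), Acsm2 to -7.84 (0.145), Kap to -10.24 (0.051) and Enah to -1.61 (0.154), past the threshold in none, and left the calls of the other 4. The numbers did not meet the rule for pairing in wild type, so these values are given beside the main fit only. The count models listed among the alternatives were not run, for the reason given with the processing. Depth limits low genes: 2310008N11Rik rests on 3 reads in gastrocnemius.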
